A study of Mus musculus with 12 samples.

Results

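The 10 genes described here are core components or direct outputs of the mammalian circadian clock: Arntl, Per1, Per2, Per3, Cry1, Cry2, Ciart, Nr1d1, Nr1d2 and Dbp. They were taken by name, as genes of the clock, with earlier results of these data known, and all 10 were among the 32285 genes of the expression matrix. They were followed across 12 cell types and 4 groups of hippocampal single-cell libraries from female C57/BL6J mice aged 9 weeks. The PBS nonstim group received phosphate-buffered saline (PBS) injections and no stimulation. The PBS stim group received PBS and 40 Hz light flicker and sound pulses for 1 h a day over 21 days. The Cisplatin nonstim group received the platinum chemotherapy drug cisplatin, as a model of chemotherapy-related cognitive impairment, and the Cisplatin stim group received cisplatin together with the same 40 Hz schedule. Mice of all 4 groups were perfused with cold buffer and their hippocampi dissociated on day 22, and the labels name no gene alteration. Each group had 3 libraries: replicate 1 held the hippocampi of 1 animal, and replicates 2 and 3 each pooled 2 animals. The sources used here give neither the hour of tissue collection, to which clock transcripts are sensitive, nor the cisplatin dose.

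The clock is a feedback loop of transcription. ARNTL (BMAL1) pairs with CLOCK and activates genes carrying E-box elements, among them the Per and Cry genes, whose proteins return to the nucleus and repress that activity, as does CIART (CHRONO). NR1D1 and NR1D2 (REV-ERBα and REV-ERBβ) repress Arntl, and DBP carries the rhythm to output genes through D-box elements. Most cells of the brain, glia and blood vessels included, hold such a clock, and glucocorticoid hormone can act on it through Per1.

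The promoters of the members were searched for elements that clock proteins bind. Those of Ciart, Cry1 and Per1 are shown as the ones that held the E-box, and that of Per3 as the one with D-boxes. RefSeq promoters of mouse build GRCm38.p6, from 250 bases before to 50 bases after the start site, were held in the table used for 9 of the 10 genes, with Per2 the gene not matched, and gave 11 sequences. Both strands were searched. The E-box CACGTG occurred in 3 of those 9 genes, Ciart, Per1 and Cry1, and in 7.15% of 32851 mouse promoters of the same length. Ciart held 3 copies, 116, 58 and 44 bases before the start site. The variant CACGTT occurred in Cry1, Cry2 and Nr1d1, and in 4.68% of all promoters. Of the 6 members that rose in oligodendrocytes under cisplatin, described with the values, 3 (Ciart, Cry1 and Per1) held CACGTG and 3 (Cry2, Nr1d1 and Dbp) did not. The D-box, searched as TTATGTAA or TTACGTAA, occurred in Per3 alone among the 9, in 2 copies, and in 1.06% of all promoters. The sequence AGGTCA, the core of the site that NR1D1 binds, occurred in Per1, Nr1d2 and Arntl, and in 16.3% of all promoters. The full palindromic glucocorticoid response element was in none of the 11 sequences and in 0.00913% of promoters. A match is a string of letters and no evidence of binding. In the following 4 sequences, each written 5′ to 3′ on the strand of its gene, capitals mark E-boxes in Ciart, Cry1 and Per1, D-boxes in Per3, and the AGGTCA core, on the opposite strand as TGACCT, in Per1.
Ciart, chr3:95882179-95882478, minus strand: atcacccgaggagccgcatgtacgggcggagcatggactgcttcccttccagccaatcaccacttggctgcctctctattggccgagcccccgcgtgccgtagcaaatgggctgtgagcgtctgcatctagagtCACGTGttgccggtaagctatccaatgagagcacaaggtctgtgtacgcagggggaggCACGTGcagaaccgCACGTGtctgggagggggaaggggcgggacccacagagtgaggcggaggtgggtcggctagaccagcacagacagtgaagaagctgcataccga
Cry1, chr10:85185005-85185304, minus strand: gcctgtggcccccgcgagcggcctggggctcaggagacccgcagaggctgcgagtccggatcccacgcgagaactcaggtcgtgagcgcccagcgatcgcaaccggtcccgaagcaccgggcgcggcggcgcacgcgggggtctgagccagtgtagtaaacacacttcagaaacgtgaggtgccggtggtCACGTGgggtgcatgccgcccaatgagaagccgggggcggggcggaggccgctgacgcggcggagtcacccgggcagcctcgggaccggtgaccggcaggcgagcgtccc
Per1, chr11:69098699-69098998, plus strand: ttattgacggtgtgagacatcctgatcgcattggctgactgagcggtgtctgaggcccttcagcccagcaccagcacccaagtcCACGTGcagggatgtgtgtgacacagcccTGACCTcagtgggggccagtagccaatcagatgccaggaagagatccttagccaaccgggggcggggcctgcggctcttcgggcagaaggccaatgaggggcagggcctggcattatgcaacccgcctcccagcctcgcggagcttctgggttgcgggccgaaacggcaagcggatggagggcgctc
Per3, chr4:151044616-151044915, minus strand: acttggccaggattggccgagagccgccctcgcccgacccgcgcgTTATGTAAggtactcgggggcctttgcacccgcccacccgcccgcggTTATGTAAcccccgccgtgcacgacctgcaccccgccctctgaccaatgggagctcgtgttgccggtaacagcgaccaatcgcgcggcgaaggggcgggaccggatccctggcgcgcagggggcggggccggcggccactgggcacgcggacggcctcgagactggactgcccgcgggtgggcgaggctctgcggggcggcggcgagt

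The libraries held 19834 cells, 611 to 2772 each, and 3964338 to 17656020 UMIs (unique molecular identifiers, counted transcripts). The 10 genes together had 40147 of 122182983 UMIs, so levels were read from sums over all cells of a type in a library, as counts per 1000000 UMIs of that sum (CPM). The authors' cell types matched their markers: 66 of 67 marker genes were highest in their own type, and Cd79a, a B-cell gene, was the exception. Of 19778 barcodes, 56 occurred in more than 1 library. The replicate 1 libraries stood apart from the others by a median of 10.7% to 17.6% mitochondrial UMIs per cell against 3.19% to 5.12%. The 4 PBS libraries of replicates 2 and 3 stood apart by the share of ribosomal RNA-like transcripts (Gm42418, AY036118 and Lars2), 1.87% to 3.65% of UMIs, against 0.417% to 0.782% in the cisplatin libraries of replicates 2 and 3 and, in replicate 1, 0.479% to 0.542% under PBS against 0.34% to 0.393% under cisplatin. That share was thus lower under cisplatin in both replicate sets, with a wider gap in replicates 2 and 3, and its part in the clock gene results was not tested beyond the fits given beside them. Choroid plexus markers were higher in median under cisplatin in the other types with calls. The summed level of 5 markers (Ttr, Kl, Folr1, Clic6, Aqp1) in oligodendrocytes was 7.07 to 426 CPM in PBS and 122 to 1629 CPM in cisplatin libraries, with 1 to 5 and 3 to 5 markers detected, against 40195 to 236643 CPM in choroid plexus cells. Their median went from 118 CPM in PBS to 401 CPM in cisplatin libraries in microglia, from 131 to 324 CPM in endothelium and from 110 to 421 CPM in astrocytes. It also went from 176 to 490 CPM in neurons and from 121 to 404 CPM in oligodendrocyte precursor cells. In pericytes it went from 75.9 to 337 CPM and in immune cells from 198 to 434 CPM. Oligodendrocyte markers had medians of 272 and 429 CPM in microglia, and in oligodendrocytes themselves the cisplatin libraries, at 40976.9 to 48016.3 CPM, lay below the PBS libraries, at 49346.5 to 57633.7 CPM. The part of these markers in the clock gene results was not tested.

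Astrocytes and ependymal cells held the highest levels of most members. Means and SDs over libraries with at least 10 cells of the type are given here as a description without a test, because the types were themselves defined from expression. Per3 was 183 ± 45.8 CPM in astrocytes (n = 12 libraries) and 96.9 ± 34.6 CPM in oligodendrocyte precursor cells (OPC), the next type, a gap larger than either SD. Dbp was 235 ± 96.2 CPM in ependymal cells (n = 9) and 231 ± 69.3 CPM in astrocytes, which did not differ beyond their spread, and both lay above choroid plexus at 126 ± 49.3 CPM. Nr1d1 (148 ± 27.3 CPM), Nr1d2 (85.9 ± 14.0 CPM) and Cry2 (109 ± 25.6 CPM) also had their highest mean in astrocytes, each followed by a type within the larger SD. Arntl too was highest in astrocytes (28.3 ± 8.65 CPM), followed by fibroblasts at 17.6 ± 22.8 CPM, from 3 libraries and 3 UMIs. Neurons came next at 16.2 ± 9.47 CPM, a gap from astrocytes larger than either SD.

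Other members had other leading types. Per1 was highest in immune cells (80.3 ± 43.1 CPM), microglia (76.0 ± 18.1 CPM) and pericytes (72.2 ± 25.3 CPM, n = 11), 3 types that did not differ beyond their SDs. Per2 was lowest in oligodendrocytes, at 1.74 ± 1.09 CPM from 52 UMIs, and highest in ependymal cells, at 27.0 ± 13.9 CPM. Cry1 was within spread from ependymal (27.7 ± 7.94 CPM) to endothelial cells (26.1 ± 13.6 CPM) and pericytes (25.2 ± 11.4 CPM), and Ciart was highest in endothelium (19.3 ± 13.2 CPM). Choroid plexus, the epithelium that makes cerebrospinal fluid, had rank 3 of the 12 types for Dbp and rank 11 or 12 for Per1, Per3, Cry2, Ciart and Arntl. Ordering the 12 types by each gene gave 11 neighbouring pairs, of which at most 2 per gene (for Dbp) differed by more than the larger SD, so the orders are loose. Fibroblasts (3 libraries) and progenitors (6 libraries) had few UMIs.

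**Figure D1:**
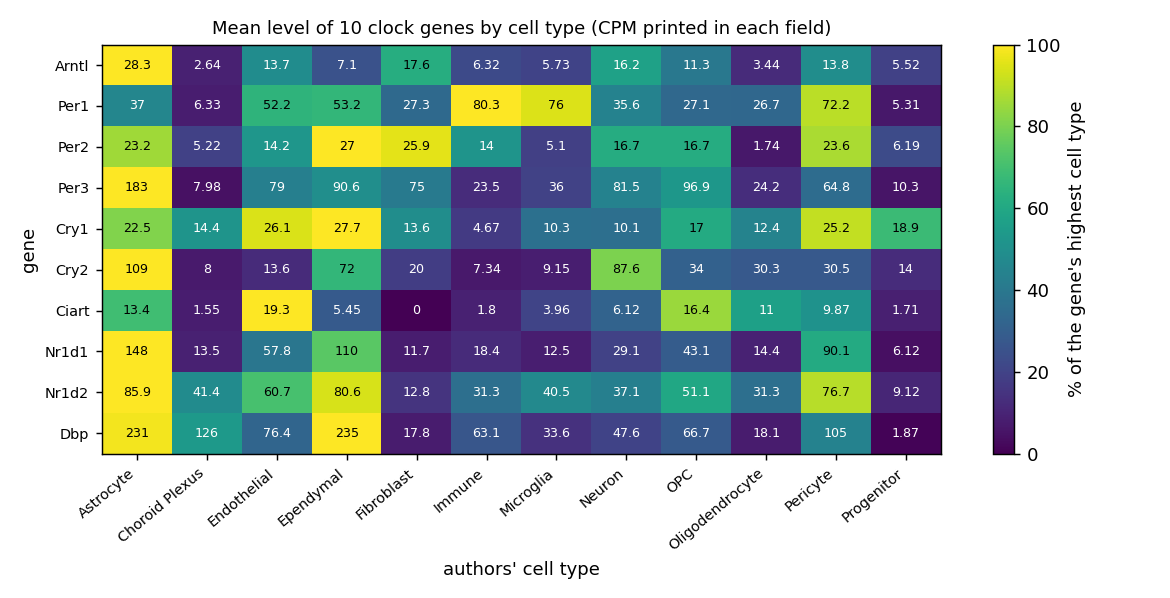
Mean CPM of each clock gene (rows) in each of the authors' 12 cell types (columns), over the libraries with at least 10 cells of the type; the number in a field is the mean CPM and the colour its percent of that gene's highest type. Astrocytes lead for 5 genes, ependymal cells for 3, immune cells for Per1 and endothelium for Ciart.

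The types were not uniform inside. Among neurons the 422 cells of the authors' cluster 12 had 161 CPM of Per3, 142 CPM of Cry2 and 32.5 CPM of Per2, and the 516 cells of cluster 10 had 11.02, 40.6 and 2.90 CPM. Among immune cells Per1 was 116 CPM in the 240 cells of cluster 15, from 128 UMIs, and 5.48 CPM in the 309 cells of cluster 14, from 3 UMIs. In microglia Per1 was 84.0 CPM in cluster 0 and 41.6 CPM in cluster 5. These clusters also differed in depth, with medians of 3403.5 and 2928 UMIs per cell in the neuron clusters, 4000.5 and 1437 in the immune clusters and 7046 and 4058 in the microglial clusters. They are sums over all libraries with no test, and the clusters came from the same counts.

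The genes whose mean log2(CPM + 1) over the 12 types was most like a member's were sought for Per1, Dbp and Arntl among 7443 genes. For Per1 they were Tacc1, Rnf169 and Diaph2, with Pearson correlations of 0.915, 0.898 and 0.895. For Dbp they were Pcbd2, Sacm1l and Xpot (0.895, 0.886 and 0.881). For Arntl they were Ccnl2, Per3 and Atl2 (0.881, 0.872 and 0.869), so 1 of the 9 other members was among these 9 neighbours. Dbp correlated with Nr1d1 at 0.837 and with Nr1d2 at 0.815. The 12 points share libraries and depth, and the values are a description.

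Cisplatin was compared with PBS per cell type on summed counts with edgeR's quasi-likelihood test, with the groups and the replicate set (replicate 1 against 2 and 3) as terms. Calls were made below an adjusted p of 0.05, with the adjustment over all genes of the type. Of 90 member and cell type pairs in the 9 types with enough libraries, 68 passed the filter on low counts. In mice without stimulation 5 of the 68 were called, 4 higher and 1 lower under cisplatin, beside 1.64% of all gene and type pairs. With stimulated and unstimulated mice averaged, 21 were called, 19 higher and 2 lower, beside 9.72% of all pairs. The unadjusted p was under 0.05 for 28 and 33 pairs. The share of all pairs under that limit is not given here, so these 2 counts are a description only. Of the 21, 8 were in microglia, 6 in oligodendrocytes, 3 each in astrocytes and endothelium and 1 in choroid plexus. In neurons, OPC, pericytes and immune cells none of 6, 6, 9 and 1 tested members was called by edgeR. Of these, 0, 2, 3 and 0 had an unadjusted p under 0.05. In replicates 2 and 3 alone, 4 of 8 members tested in pericytes were called, 2 higher and 2 lower. The shares of all genes called in these 4 types are not given here, so the lack of calls is a description only. The averaged comparison and the one without stimulation share libraries.

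These counts fell without the PBS libraries of replicates 2 and 3. That fit kept 1 library in each PBS group, tested 60 pairs and had less power. What part of the fall came from lost power was not tested. With those 4 libraries left out, 2 pairs were called in the averaged comparison (Per1 higher in oligodendrocytes and Dbp lower in endothelium) beside 1.5% of all pairs, and 1 without stimulation (Dbp lower in endothelium), beside 0.213%. With the ribosomal RNA-like share as a covariate, 1 was called in the averaged comparison (Per1 in oligodendrocytes), beside 0.366% of all pairs, and none without stimulation, beside 0.036%. In replicates 2 and 3 alone, 33 were called in the averaged comparison, beside 17.5% of all pairs, and 20 without stimulation, beside 9.68%. Single libraries moved the counts too: the 21 became 12 without Cisplatin stim 2, Cisplatin stim 3 or PBS nonstim 2 and 13 without Cisplatin nonstim 2, PBS stim 2 or PBS stim 3. The 5 became 1 without Cisplatin nonstim 2, 2 without PBS nonstim 2 or PBS nonstim 3, 9 without Cisplatin stim 1 and 18 without PBS nonstim 1. Of the 21 calls, 10 held in all 12 fits that left out 1 library: Per1, Cry1, Cry2, Ciart, Nr1d1 and Dbp in oligodendrocytes, Per2 and Per3 in microglia, and Cry1 and Nr1d1 in endothelium. The shares of all pairs called in those fits are not given here. How many calls of all genes held in them was not counted, so these 10 are not shown to be more stable than other calls.

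**Figure D2:**
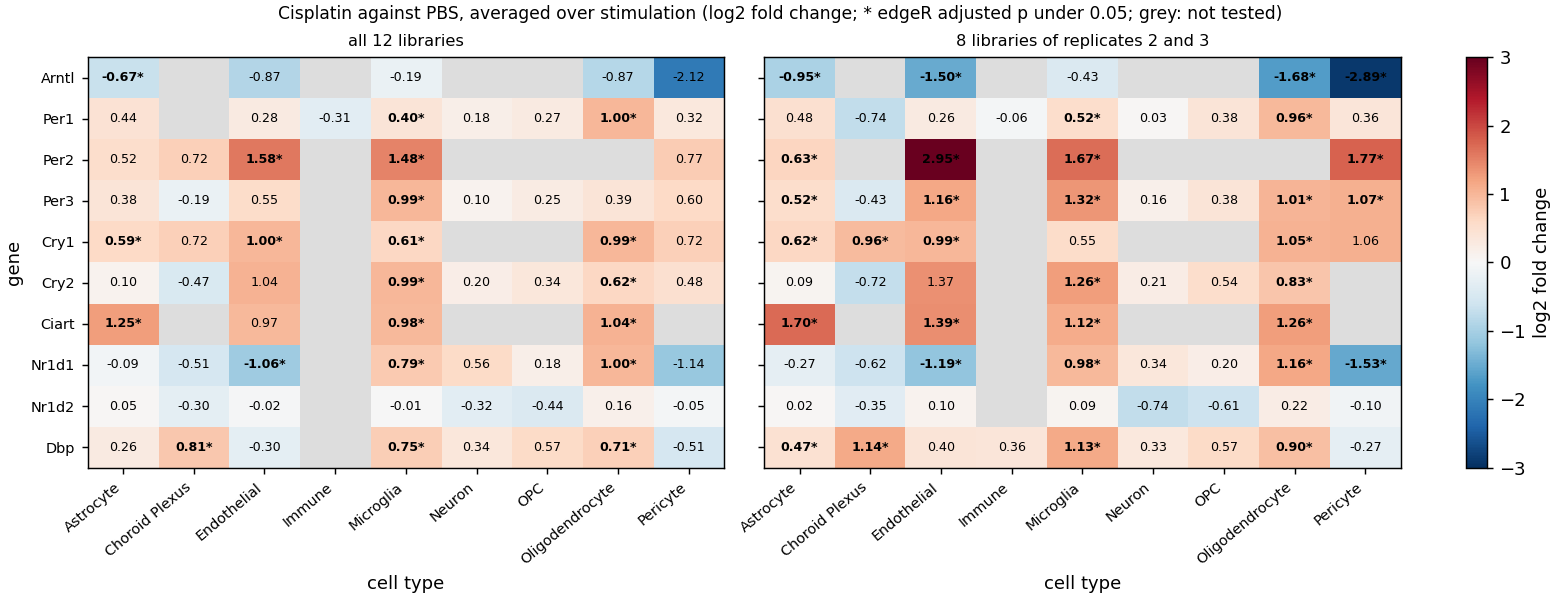
Log2 fold change of cisplatin against PBS, averaged over stimulation, for each clock gene (rows) and tested cell type (columns), in all 12 libraries (left) and in the 8 libraries of replicates 2 and 3 (right); asterisks mark an edgeR adjusted p under 0.05 and grey fields were not tested. All 12 libraries gave 21 calls and the 8 libraries 33, with Arntl and Nr1d1 the genes called lower.

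Arntl, the activator of the loop, was lower under cisplatin in astrocytes. Its level there was 37.9, 32.5 and 41.6 CPM in PBS nonstim replicates 1 to 3 and 31.1, 30.0 and 35.3 CPM in PBS stim, and 26.7, 14.1 and 26.9 CPM in Cisplatin nonstim and 29.2, 20.6 and 13.8 CPM in Cisplatin stim. Every cisplatin library lay below every PBS library, a separation in that direction that held for 0.738% of the genes tested in astrocytes. Arntl fell by 0.67 on the log2 scale (SE 0.18, edgeR adjusted p 0.0219), where 2.42% of astrocyte genes were called lower and 2.6% higher, and the call held in 7 of 12 fits without 1 library. In the other 4 types tested its estimates were also below 0, −0.87 in endothelium and in oligodendrocytes, −0.19 in microglia and −2.12 in pericytes, none called. Without the PBS libraries of replicates 2 and 3 the astrocyte estimate was −0.23. An antisense gene, Gm45355, overlaps 2394 bases of Arntl away from its 3′ end.

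Per1, a repressor of the loop and an early-response gene, gave the smallest adjusted p of the 21 calls, in oligodendrocytes, the myelinating cells. Its level was 16.3, 17.4 and 19.8 CPM in PBS nonstim, 7.07, 26.3 and 18.9 CPM in PBS stim, 20.7, 35.9 and 37.3 CPM in Cisplatin nonstim and 35.1, 40.8 and 44.7 CPM in Cisplatin stim. All cisplatin libraries but Cisplatin nonstim replicate 1 lay above every PBS library, an order whose share over all oligodendrocyte genes was not counted. Per1 rose by 1.00 (SE 0.14, edgeR adjusted p 2.8e-05) in the averaged comparison and by 0.85 (SE 0.18, adjusted p 0.00897) without stimulation. The averaged call also held without the PBS libraries of replicates 2 and 3, at 1.37 (SE 0.27, adjusted p 0.0112), and with the ribosomal RNA-like share as a covariate, at 1.25 (SE 0.31, adjusted p 0.0431). In oligodendrocytes 11.3% of the genes tested were called higher in the averaged comparison and 3.33% without stimulation. In microglia, the resident macrophages, Per1 was 74.5, 60.01 and 57.0 CPM in PBS nonstim, 59.8, 78.6 and 68.3 CPM in PBS stim, 69.1, 84.8 and 104 CPM in Cisplatin nonstim and 56.4, 110 and 89.8 CPM in Cisplatin stim. The arms overlapped, and Per1 rose by 0.40 (SE 0.11, edgeR adjusted p 0.0199), an estimate that was −0.003 without the PBS libraries of replicates 2 and 3.

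Per3 and Per2, the other Period genes, were called in microglia, where 8.2% of the genes tested were called higher in the averaged comparison and 2.21% without stimulation. Per3 was 40.5, 16.8 and 21.9 CPM in PBS nonstim, 34.3, 26.2 and 18.3 CPM in PBS stim, 54.2, 62.5 and 57.9 CPM in Cisplatin nonstim and 7.05, 51.3 and 41.5 CPM in Cisplatin stim. The 3 Cisplatin nonstim libraries lay above all PBS libraries, and Cisplatin stim 1, with 120 microglia, lay below them all. Per3 rose by 1.31 (SE 0.26, edgeR adjusted p 0.00525) without stimulation and by 0.99 (SE 0.21, adjusted p 0.00279) in the averaged comparison. Without the PBS libraries of replicates 2 and 3 these estimates were 0.22 and −0.03. Per2 was 3.92, 2.60 and 3.09 CPM in PBS nonstim, 2.54, 3.13 and 1.83 CPM in PBS stim, 6.23, 7.51 and 9.37 CPM in Cisplatin nonstim and 1.76, 12.4 and 6.74 CPM in Cisplatin stim, from 135 UMIs in all. It rose by 1.48 (SE 0.31, edgeR adjusted p 0.00243), with 5 of 6 cisplatin libraries above every PBS library, and was 0.70 without the PBS libraries of replicates 2 and 3. How many microglial genes had their libraries ordered as for Per3 or Per2 was not counted. The Per3 gene lies within Camta1 on the same strand, so part of its reads may have been shared or discarded by the counting.

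Per2 in endothelium, the lining of blood vessels, depended on the replicate. Its level was 28.6, 1.63 and 4.31 CPM in PBS nonstim, 15.2, 3.38 and 1.54 CPM in PBS stim, 21.2, 21.0 and 25.3 CPM in Cisplatin nonstim and 9.14, 18.7 and 20.04 CPM in Cisplatin stim. Within replicates 2 and 3 the PBS libraries were at or under 4.31 CPM and the cisplatin libraries at or over 18.7 CPM, while in replicate 1 both PBS libraries reached cisplatin levels. The share of endothelial genes separated in this way was not counted. The Per2 levels rest on few UMIs, 24 in all of PBS nonstim, 6 in PBS stim, 71 in Cisplatin nonstim and 30 in Cisplatin stim. The averaged comparison gave 1.58 (SE 0.47, edgeR adjusted p 0.0452), called in 4 of 12 fits without 1 library. It gave 2.95 in replicates 2 and 3 alone and −0.27 without their PBS libraries. In endothelium 3.13% of genes were called higher in the averaged comparison. In oligodendrocytes Per2 had 52 UMIs and did not pass the filter on low counts.

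Cry1 and Cry2, the Cryptochrome repressors, were called in 4 and 2 types. In oligodendrocytes Cry1 was 9.69, 9.55 and 7.08 CPM in PBS nonstim, 11.1, 5.68 and 8.06 CPM in PBS stim, 18.9, 16.1 and 18.9 CPM in Cisplatin nonstim and 15.9, 13.6 and 13.8 CPM in Cisplatin stim. Every cisplatin library lay above every PBS library, which held for 1.9% of the genes tested there. Cry1 rose by 0.99 (SE 0.16, edgeR adjusted p 0.000175) in the averaged comparison and by 1.06 (SE 0.20, adjusted p 0.00342) without stimulation, and was 0.77 (adjusted p 0.165) in the averaged comparison without the PBS libraries of replicates 2 and 3. It also rose in endothelium (1.00, SE 0.24), astrocytes (0.59, SE 0.17) and microglia (0.61, SE 0.20), with estimates of 1.03, 0.62 and 0.77 without those PBS libraries that were not called. Of the 12 fits without 1 library, the Cry1 call held in 12 in endothelium, 3 in astrocytes and 1 in microglia. All 6 types tested had a Cry1 estimate above 0, and 4 were called. Fewer UMIs lay behind Cry1 than behind Per1, 234 to 395 in each of those 4 types.

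Cry2 rose in microglia by 1.22 (SE 0.32, edgeR adjusted p 0.0355) without stimulation and by 0.99 (SE 0.25, adjusted p 0.0106) in the averaged comparison. Its level there was 7.19, 4.40 and 5.90 CPM in PBS nonstim, 10.2, 6.84 and 6.58 CPM in PBS stim, 9.59, 14.5 and 13.2 CPM in Cisplatin nonstim and 1.76, 17.9 and 11.8 CPM in Cisplatin stim. Cisplatin stim 1 was again the lowest library, from 1 UMI. Without the PBS libraries of replicates 2 and 3 the averaged estimate was −0.17. In oligodendrocytes Cry2 rose by 0.62 (SE 0.16, adjusted p 0.00746) in the averaged comparison, with overlapping arms, and was 0.10 without those libraries. The antisense gene D930015M05Rik overlaps Cry2 away from its 3′ end.

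Ciart, the repressor with 3 E-boxes in its promoter, had estimates above 0 in the 4 types tested and was called in 3. In oligodendrocytes it was 17.4, 6.16 and 7.88 CPM in PBS nonstim, 5.05, 4.26 and 5.24 CPM in PBS stim, 15.3, 10.0 and 17.5 CPM in Cisplatin nonstim and 14.9, 10.6 and 17.1 CPM in Cisplatin stim. The PBS nonstim replicate 1 library lay among the cisplatin libraries and the other 5 PBS libraries lay below them. The share of oligodendrocyte genes with this order was not counted. Ciart rose by 1.04 (SE 0.23, edgeR adjusted p 0.00248) in oligodendrocytes and by 1.25 (SE 0.32, adjusted p 0.0184) in astrocytes. It rose by 0.98 (SE 0.33, adjusted p 0.0459) in microglia, where it had 106 UMIs and was called in 3 of 11 fits without 1 library. The estimates without the PBS libraries of replicates 2 and 3 were 0.73, 0.63 and 0.40. The antisense gene C920021L13Rik spans all of Ciart, and whether the counting used strand is not stated in the sources used.

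**Figure D3:**
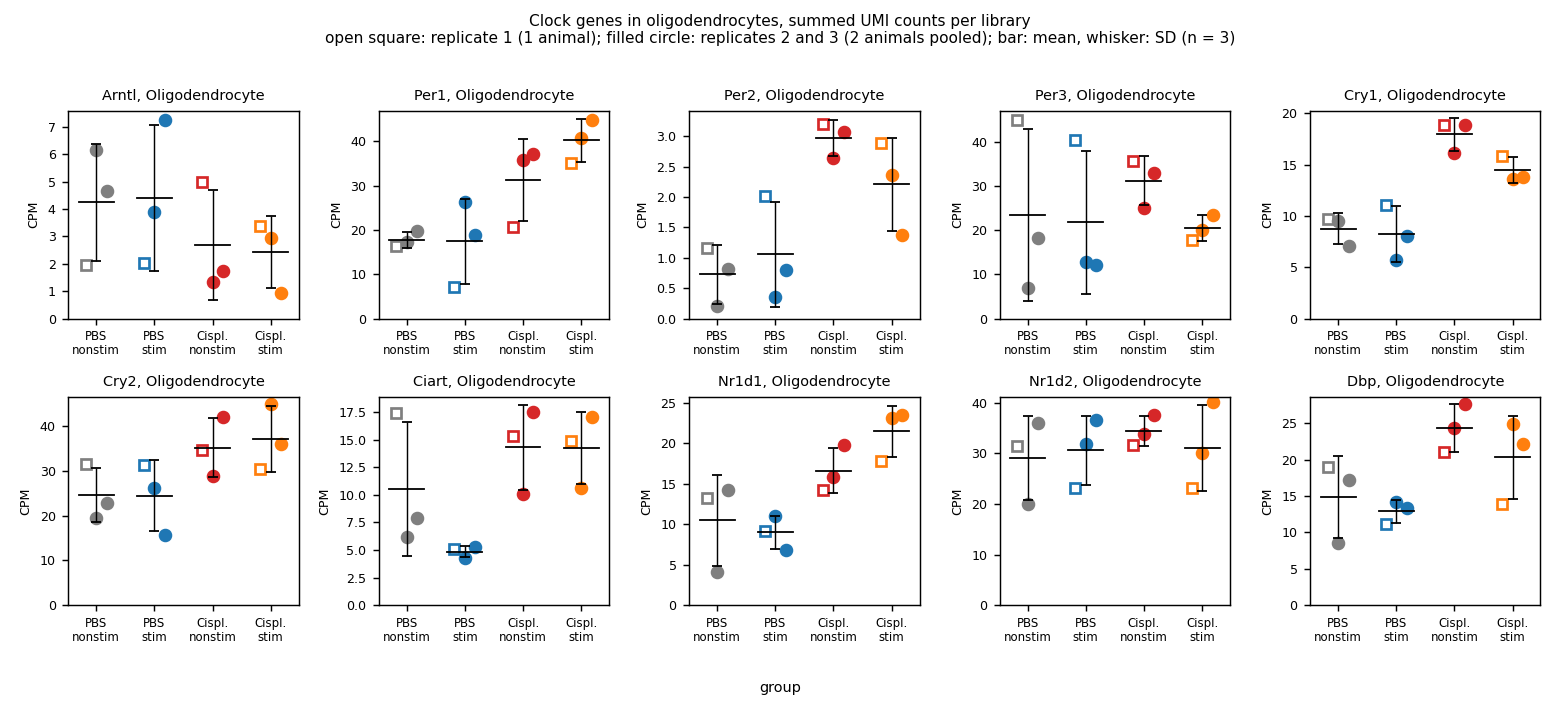
CPM of the 10 clock genes in oligodendrocytes by group; open squares are replicate 1, filled circles replicates 2 and 3, bars the group mean and whiskers its SD (n = 3 libraries). Cry1 and Nr1d1 do not overlap between the PBS and cisplatin libraries, and for Per3 the replicate 1 PBS libraries, at 45.0 and 40.4 CPM, are the highest of all 12.

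**Figure D4:**
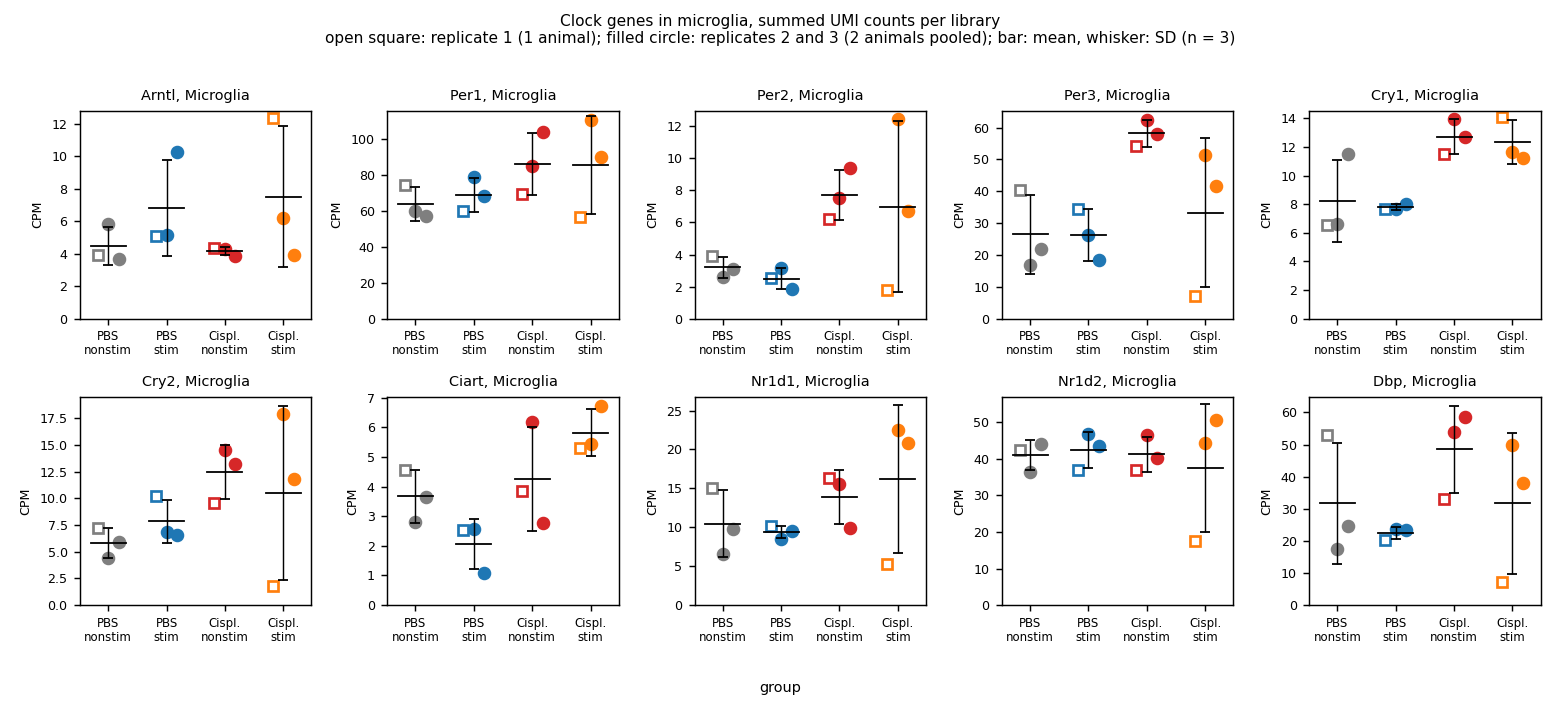
CPM of the 10 clock genes in microglia by group, drawn as for oligodendrocytes. The Cisplatin nonstim libraries lie above every PBS library for Per2 and Per3, an order whose share over all genes was not counted. Cisplatin stim 1 is the lowest library for Per1, Per2, Per3, Cry2, Nr1d1, Nr1d2 and Dbp.

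Nr1d1, the nuclear receptor that represses Arntl, moved in opposite directions in different cells. In endothelium it was 64.7, 51.4 and 103 CPM in PBS nonstim, 55.6, 76.1 and 108 CPM in PBS stim, 28.2, 25.8 and 35.4 CPM in Cisplatin nonstim and 54.9, 45.9 and 43.8 CPM in Cisplatin stim. The Cisplatin nonstim libraries lay below all others, and the Cisplatin stim libraries overlapped PBS through 1 library. How many endothelial genes had this order was not counted. Nr1d1 fell by 1.27 (SE 0.25, edgeR adjusted p 0.00994) without stimulation, where 0.393% of endothelial genes were called lower, and by 1.06 (SE 0.18, adjusted p 0.000765) in the averaged comparison, where 2.53% were. In oligodendrocytes it was 13.2, 4.03 and 14.2 CPM in PBS nonstim, 9.09, 10.998 and 6.85 CPM in PBS stim, 14.3, 15.9 and 19.7 CPM in Cisplatin nonstim and 17.8, 23.1 and 23.5 CPM in Cisplatin stim. The arms did not overlap, by a narrow margin, a separation in that direction that held for 1.9% of the genes tested there. Nr1d1 rose by 1.00 (SE 0.24, edgeR adjusted p 0.00417) in the averaged comparison. In microglia it rose by 0.79 (SE 0.22, adjusted p 0.0208) and in astrocytes its estimate was −0.09. Without the PBS libraries of replicates 2 and 3 the averaged estimates kept their signs, at −0.58 in endothelium, 0.57 in oligodendrocytes and 0.24 in microglia, and were not called.

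Nr1d1 and the thyroid hormone receptor gene Thra lie on opposite strands and overlap by 1075 bases at the 3′ end of Nr1d1, where a 3′ assay counts. Thra differed by −0.19 in endothelium (SE 0.12, edgeR adjusted p 0.416) and by 0.05 in oligodendrocytes (SE 0.07, adjusted p 0.629) in the averaged comparison. It was called higher in astrocytes (0.44, SE 0.11, edgeR adjusted p 0.0169) and OPC (0.42, SE 0.11, adjusted p 0.0345). Its other estimates were 0.30 in microglia, 0.62 in neurons, −0.10 in choroid plexus and −0.18 in pericytes, none called. Whether reads of Thra and Nr1d1 were shared was not tested. Nr1d2, the paralog, was not called in any of 8 types by edgeR, with estimates between −0.44 (OPC, unadjusted p 0.033) and 0.16 (oligodendrocytes). In oligodendrocytes it was 31.4, 19.95 and 36.0 CPM in PBS nonstim and 31.8, 33.8 and 37.7 CPM in Cisplatin nonstim.

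Dbp, the output factor that binds D-boxes, was called in 3 types. In oligodendrocytes it was 19.0, 8.49 and 17.2 CPM in PBS nonstim, 11.1, 14.2 and 13.3 CPM in PBS stim, 21.0, 24.3 and 27.6 CPM in Cisplatin nonstim and 14.0, 24.8 and 22.1 CPM in Cisplatin stim. It rose by 0.71 (SE 0.19, edgeR adjusted p 0.00895) there, by 0.75 (SE 0.23, adjusted p 0.0357) in microglia and by 0.81 (SE 0.22, adjusted p 0.0287) in choroid plexus, where 5.96% of genes were called higher. Without the PBS libraries of replicates 2 and 3 these estimates were 0.32, −0.44 and −0.23. Of the 12 fits without 1 library, the Dbp call held in 12 in oligodendrocytes, 3 in microglia and 4 in choroid plexus. In endothelium Dbp was 149 and 167 CPM in the 2 PBS libraries of replicate 1, 23.7, 76.1, 81.1 and 52.4 CPM in the other PBS libraries and 30.5 to 91.4 CPM in the cisplatin libraries. Its estimate there was −0.30 and not called in all libraries, and −1.91 (SE 0.26, edgeR adjusted p 7.4e-05) without the PBS libraries of replicates 2 and 3. Dbp overlaps the antisense gene Sphk2 by 737 bases at its 3′ end.

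The cisplatin difference was itself compared between replicate 1 (4 libraries) and replicates 2 and 3 (8 libraries) with an added term, chosen after seeing the data. On the signed log2 scale it was lower in replicate 1 for 6 of 68 pairs, beside 1.36% of all pairs: Dbp in endothelium (−2.34), microglia (−1.83) and choroid plexus (−1.25), Per2 in endothelium (−3.36), and Per3 in endothelium (−1.92) and oligodendrocytes (−1.64), all by edgeR at adjusted p 0.00805 to 0.0318. Per3 in oligodendrocytes was 45.0 and 40.4 CPM in the PBS libraries of replicate 1 and 7.01 to 18.2 CPM in the other PBS libraries, against 17.8 to 35.7 CPM in cisplatin libraries. Replicate, number of animals, mitochondrial share and the gap between arms in ribosomal RNA-like share cannot be told apart here.

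**Figure D5:**
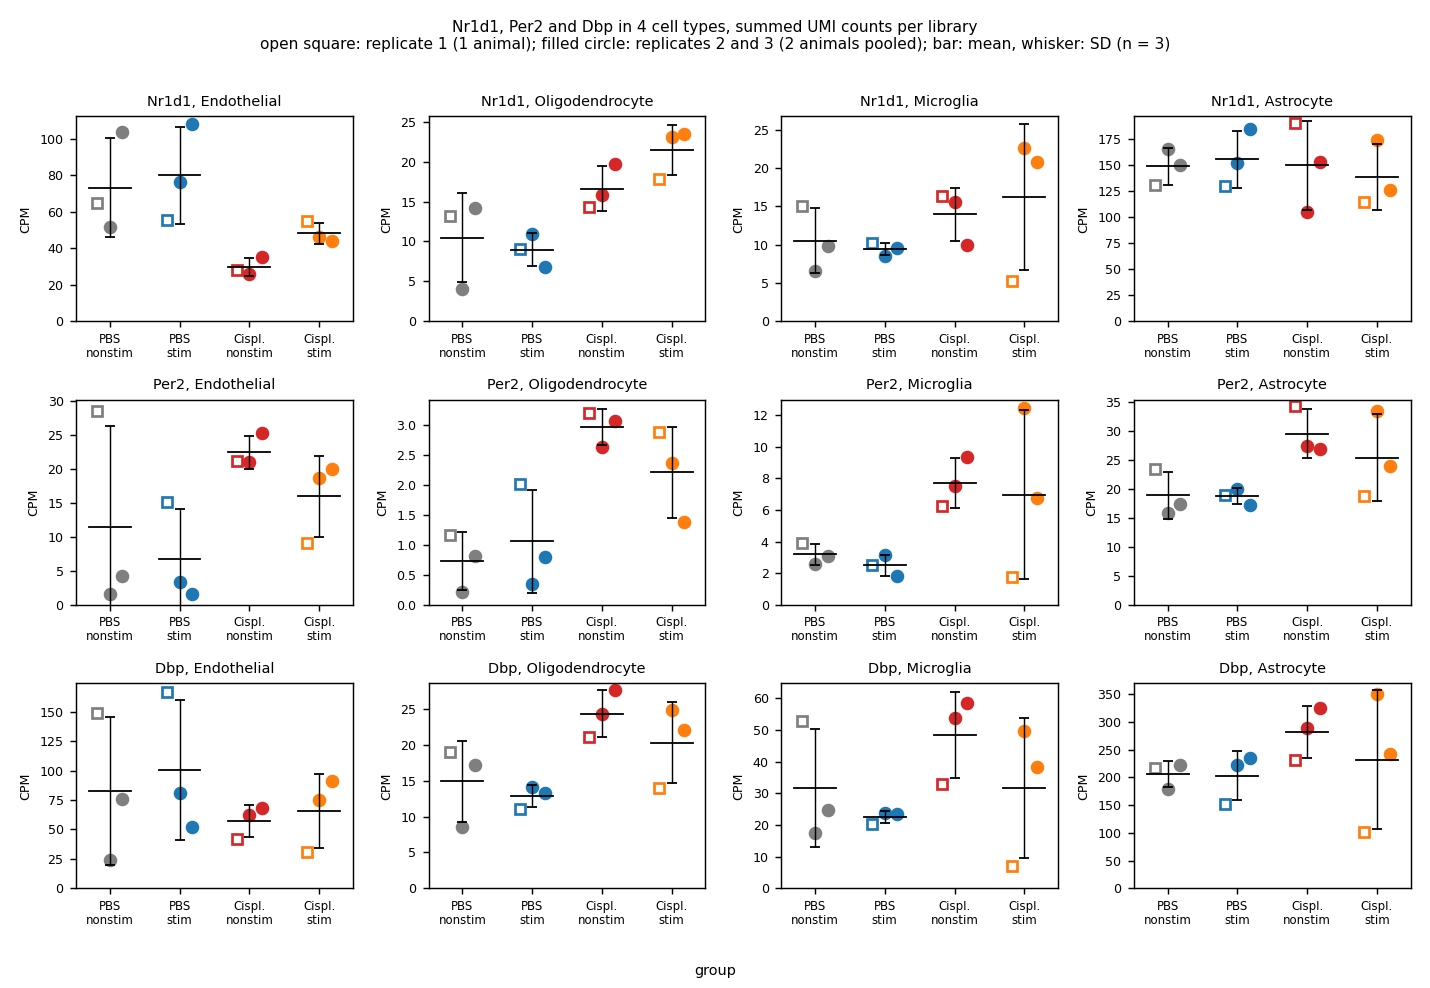
CPM of Nr1d1, Per2 and Dbp by group in endothelium, oligodendrocytes, microglia and astrocytes; open squares are replicate 1, filled circles replicates 2 and 3, bars the group mean and whiskers its SD (n = 3 libraries). Nr1d1 is lower under cisplatin in endothelium and higher in oligodendrocytes, and the endothelial replicate 1 PBS libraries have the highest Dbp of all 12, at 149 and 167 CPM.

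The difference between cell types was tested directly for 6 pairs of astrocytes, endothelium, microglia and oligodendrocytes, in 1 edgeR fit per pair with the library as a block and over all genes, also chosen after seeing the data. Of 60 member and pair tests 12 were called, and 5 of them were of Nr1d1. Its cisplatin effect was higher in oligodendrocytes than in endothelium by 2.13 (SE 0.25, edgeR adjusted p 1.35e-08) and in microglia than in endothelium by 1.85 (SE 0.26, adjusted p 5.37e-08), and lower in endothelium than in astrocytes by 0.924 (edgeR adjusted p 0.000519). Over all genes, 2.85% were called in that first pair, 3.16% in the second and 1.27% in the third. In the remaining pairs 1.97% were called between microglia and astrocytes, 3.75% between oligodendrocytes and astrocytes and 6.61% between oligodendrocytes and microglia. Per1 had a higher effect in oligodendrocytes than in microglia by 0.577 (adjusted p 0.00694) and than in endothelium by 0.716 (adjusted p 0.034). Dbp had a higher effect in microglia (0.822) and oligodendrocytes (1.01) than in endothelium. Cry2 had a higher effect than in astrocytes in microglia (0.881) and oligodendrocytes (0.507), and Per3 in microglia (0.521). No pair was called for Per2, Cry1, Ciart, Arntl or Nr1d2, so a call of these genes in 1 type and not in another does not show that the types differed. The ribosomal RNA-like share was not a term of these fits.

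The 40 Hz stimulation was compared within each drug arm. By edgeR no member was called in any of 68 pairs for stimulation in cisplatin mice, where 0.196% of all gene and type pairs were called, for stimulation in PBS mice, where 0% were, or for the interaction of drug and stimulation, where 0.0245% were. The unadjusted p was under 0.05 for 4, 5 and 3 pairs, without the share of all pairs beside them. DESeq2 and limma-voom also called 0 in each of the 3 comparisons. In cisplatin mice the smallest p was that of Cry2 in astrocytes, which was 118, 77.7 and 84.4 CPM in Cisplatin nonstim and 156, 138 and 107 CPM in Cisplatin stim (log2 difference 0.52, SE 0.15, edgeR adjusted p 0.306). Ciart in endothelium, at 20.3, 10.5 and 14.2 CPM in Cisplatin nonstim and 45.7, 37.4 and 20.04 CPM in Cisplatin stim, differed by 1.24 (SE 0.40, adjusted p 0.392). Nr1d1 in endothelium differed by 0.65 (SE 0.29, adjusted p 0.689). In PBS mice the smallest p was that of Nr1d2 in endothelium (0.78, SE 0.27, adjusted p 1.00). With 3 libraries a group these comparisons do not show that stimulation left the clock genes unchanged.

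Among 20 further clock genes, activators, clock kinases, ligases and output factors, 103 gene and type pairs were tested. Without stimulation 3 were called, beside 1.64% of all pairs, and all were higher: Usp2, a deubiquitinase under clock control, in astrocytes (0.77) and oligodendrocytes (0.56), and Csnk1e, a kinase that phosphorylates Per proteins, in oligodendrocytes (0.45). In the averaged comparison 12 were called higher and 4 lower, beside 9.72% of all pairs called. In oligodendrocytes 7 of 14 were higher and 1 lower (median 0.32 beside 0.01 over all genes), where 23.3% of all genes were called and 11.3% were higher. There Hlf and Tef, relatives of Dbp, rose by 1.22 (SE 0.28) and 0.40 (SE 0.10), and Clock, the partner of Arntl, fell by 0.49 (SE 0.12, edgeR adjusted p 0.00588). Clock was 65.9, 85.3 and 81.1 CPM in PBS nonstim, 52.5, 83.4 and 93.5 CPM in PBS stim, 63.1, 56.0 and 45.2 CPM in Cisplatin nonstim and 61.1, 50.3 and 50.3 CPM in Cisplatin stim. The arms overlapped only through the PBS stim replicate 1 library, an order whose share over all genes was not counted. Usp2 in astrocytes was 81.9 to 115 CPM in the 6 PBS libraries and 122 to 208 CPM in the 6 cisplatin libraries, without overlap. In either direction the arms did not overlap for 150 of 10163 genes tested in astrocytes. No further clock gene was called by edgeR for stimulation or the interaction.

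Glucocorticoid-responsive genes were called in types with and without clock gene calls. Of 106 pairs tested, 21 were called higher and 4 lower under cisplatin without stimulation, beside 1.64% of all pairs. In endothelium 3 were higher and 2 lower, in pericytes 1 was higher and 2 lower, and in OPC and astrocytes 1 each was higher. Of 15 such genes in oligodendrocytes 11 were called higher under cisplatin without stimulation (median 1.29), beside 3.33% of all genes there. This list and that of immediate early genes share Dusp1. Both were chosen with earlier results of these data known, so their counts are a description only. By stimulation in cisplatin mice 11 were called higher, beside 0.723% of all genes, and no clock gene was called. The 3 with the smallest p without stimulation were Plin4 (1.96, SE 0.23), Fkbp5 (2.47, SE 0.33) and Hif3a (3.25, SE 0.47). Fkbp5, a chaperone induced by glucocorticoids, was 5.05 to 7.64 CPM in PBS nonstim, 4.04 to 13.8 CPM in PBS stim, 8.21, 48.6 and 43.0 CPM in Cisplatin nonstim and 67.9 to 81.6 CPM in Cisplatin stim, so Cisplatin nonstim 1 stayed near PBS. Of 26 immediate early and dissociation genes, 25 were tested in oligodendrocytes and 10 were called higher under cisplatin without stimulation (median 0.71), beside the same 3.33%. In microglia 4 of 12 glucocorticoid-responsive genes were higher without stimulation, and 2 immediate early genes were higher and 2 lower, beside 2.21% of all microglial genes higher and 1.38% lower. The part of these genes in the clock gene differences was not tested.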

How the data were processed

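The submitters' processing notes list Cell Ranger 5.0.0, Scanpy and mm10, with no role stated for each. Annotation release, strand setting and any doublet step were not given in the sources used here. A deposited matrix holds raw UMI counts made by the authors with 3′ chemistry, so values depend on annotated transcript ends. The deposited library name, cell type and cluster of each cell (other, not a measurement) were used as given, and no cell was marked as a doublet. A per-gene mean deposited by the authors, a score on an unstated scale, served only to check the gene order (r = 0.9976).

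For each cell type, counts were summed within a library in Python 3.11.15 with pandas 2.3.3. Libraries with under 10 cells of a type were left out of it, and 9 types kept at least 2 libraries in every group; ependymal cells, fibroblasts and progenitors were described only. Totals of a type ran from 27455 UMIs (immune) to 6139867 (choroid plexus) per library in the tested types, which limits low genes. edgeR 4.0.16 in R 4.3.3 (TMM, filterByExpr, quasi-likelihood test) fitted the 4 groups and the replicate set (replicate 1 against 2 and 3) over all libraries, with Benjamini-Hochberg adjustment over all genes of a type and comparison. DESeq2 1.42.0 and limma 3.58.1 were alternatives. P-values measure the spread between libraries, which are separate animals or pools. Positions follow GENCODE and RefSeq on GRCm38. The members and lists were chosen with earlier results of these data known. The text names all 10 members, other clock genes by smallest p (at most 6 a comparison), at most 3 glucocorticoid-responsive genes, and the 3 genes most like Per1, Dbp and Arntl over cell types. Alternatives were other normalization, filter, tools, terms, cells and libraries; leaving out the PBS libraries of replicates 2 and 3, and the tests between replicate sets and between cell types, were chosen after seeing the data.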

Additional observations from a re-analysis of the deposited data

Results flagged for a closer look

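The effect of cisplatin, averaged over stimulation, differed between replicate 1 and replicates 2 and 3 by an edgeR interaction term for 6 pairs. On the log2 scale, replicate 1 minus replicates 2 and 3, the differences were −2.34 for Dbp, −3.36 for Per2 and −1.92 for Per3 in endothelium, −1.83 for Dbp in microglia, −1.25 for Dbp in choroid plexus and −1.64 for Per3 in oligodendrocytes.

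The same effect differed between cell types in 12 of 60 tests. For Nr1d1 it was −0.924 in endothelium minus astrocytes, 0.939 in microglia minus astrocytes, 1.16 in oligodendrocytes minus astrocytes, 1.85 in microglia minus endothelium and 2.13 in oligodendrocytes minus endothelium. For Cry2 it was 0.881 in microglia minus astrocytes and 0.507 in oligodendrocytes minus astrocytes, and for Per3 0.521 in microglia minus astrocytes. For Dbp it was 0.822 in microglia minus endothelium and 1.01 in oligodendrocytes minus endothelium. For Per1 it was 0.716 in oligodendrocytes minus endothelium and 0.577 in oligodendrocytes minus microglia.

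In cell types too small to test, 5 pairs of member and type in stimulated PBS libraries lay above every unstimulated PBS library, and 1 lay below. Among ependymal cells the lowest PBS stim value of Cry1 was 36.0 CPM. Among progenitors the lowest PBS stim values were 17.9 CPM for Per3, 23.8 CPM for Cry2, 17.9 CPM for Nr1d2 and 6.94 CPM for Arntl. Cry1 in progenitors went the other way, with 0 UMIs in both PBS stim libraries and at least 4.01 CPM in each PBS nonstim library, from 4 UMIs in all. The PBS stim values rest on 11 UMIs for Cry1 in ependymal cells and on 4 to 9 UMIs in progenitors. Among all genes with at least 5 UMIs in these libraries, 11.6% lay above and 8.43% below in ependymal cells, and 12.8% above and 5.18% below in progenitors. With 2 PBS stim against 3 PBS nonstim libraries, the differences were not tested.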

How the results depend on the processing

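The 21 calls of the averaged comparison became 12 with DESeq2 and 12 with no replicate-set term, 33 in replicates 2 and 3 alone, 1 with the ribosomal RNA-like share as a covariate, 2 on leaving out the replicate 2 and 3 PBS libraries (chosen after seeing the data), and 12 to 26 with each library left out in turn. The 5 calls without stimulation became 3 with DESeq2, 8 with limma-voom, 2 with no replicate-set term, 18 with no filter, 20 in replicates 2 and 3 alone, 0 with the covariate, 1 without the PBS libraries of replicates 2 and 3, and 1 to 18 with each library left out. With a replicate block in place of the replicate set they were 16 and 5. Replicate numbers did not pair the libraries by the deviations from group means: same-number correlations over cell types averaged 0.389, 0.188 and 0.183 in PBS and 0.286, 0.0805 and 0.0924 in cisplatin, and 6 of 12 libraries correlated best with their own number. Stimulation and interaction gave 0 calls in every setting run. Of the single-gene values under alternatives, 427 kept direction and call, 158 kept direction only and 8 changed sign. Without the PBS libraries of replicates 2 and 3 these were Dbp in choroid plexus (−0.231) and microglia (−0.4421), Per2 in endothelium (−0.2651), and Cry2 (−0.1683), Per3 (−0.02521) and Per1 (−0.002643) in microglia. With the covariate they were Per2 in endothelium (−0.4202) and Dbp in microglia (−0.3172). The cause was not tested. Leaving out libraries or adding a term that moves with the drug also leaves less power. Depth limits the low members: Ciart, Per2, Cry1 and Arntl had at most 476 UMIs in any type.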
